A study of Jatropha curcas with 15 samples.

Results

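A set of 84 array probes is described here that were lower in *Jatropha curcas* inflorescence buds 48 h after treatment with 6-benzyladenine (BA) and close to their starting level before that. The probes were selected on their own measured values in the authors' log2 table. A probe was kept where its mean of the 3 arrays at 48 h lay at least 0.8 below its mean at 0 h, while its means at 3, 12 and 24 h all lay within 0.5 of it. Only 32303 of the 41651 probes could qualify, since each had to stand well above background on every array (15 in all), and 85 of them met these limits. Of 2 probes that the selection left out by name, CUST_36748 (ATHB2) met the limits and CUST_18192 (MYB77) did not. Since the differences from 0 h chose the probes, these differences are given below as a description, and where limma's calls or adjusted p are counted for them, the counts describe the spread and are no test of the set.

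*J. curcas*, physic nut, is a woody oil plant, and BA is a synthetic cytokinin. Inflorescence buds (labelled flower bud) of field-grown plants aged 1 year were sprayed with 1 mM BA and sampled at a starting point (0 h) and a further 4 times (3, 12, 24 and 48 h). Each time point had 3 biological replicates, each on an array of its own. No unsprayed buds were measured at the later time points, so BA treatment and the age of the bud cannot be told apart. RNA came from whole buds, in which fewer cells of a type and less RNA per cell cannot be told apart either.

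The 3 names at hand are those of genes known from cell expansion in other plants. Xyloglucan endotransglucosylase/hydrolases (XTHs) cut and rejoin the xyloglucan chains that tie cellulose microfibrils together, and are known from expanding tissues. BRU1 of soybean is an XTH whose transcript accumulates after brassinosteroid treatment, and XTH22 of *Arabidopsis*, also called TCH4, responds to touch, auxin and brassinosteroid. EXORDIUM of *Arabidopsis* is a secreted protein whose transcript rises with brassinosteroid and that promotes leaf and shoot growth.

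A description was at hand for 3 of the 84 probes, from the 966 described probes in the lists used here. CUST_12034 was described as a putative brassinosteroid-regulated protein BRU1 precursor and CUST_14531 as a putative XTH22 precursor, both of *Ricinus communis*. CUST_1210 was described as EXORDIUM of *Arabidopsis*. The names are thus those of genes in other species, and the function of the *J. curcas* genes was not tested. The other 81 are given by their probe names. None of the 84 was among the 115 probes of the study's hormone list, of which 108 stood well above background on every array. The members are 84 of 32303 such probes, and ATHB2, a probe of that list that met the limits, was left out by name. Nothing is therefore read from this absence. The probes of the 3 described members are printed next because they carry the only names in the set. Capitals in the first pair mark a stretch of 32 bases over which the BRU1 and XTH22 probes could be laid side by side without a gap, with 25 identical bases.

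CUST_12034 (BRU1 precursor): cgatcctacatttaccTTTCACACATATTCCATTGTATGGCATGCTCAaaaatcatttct

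CUST_14531 (XTH22 precursor): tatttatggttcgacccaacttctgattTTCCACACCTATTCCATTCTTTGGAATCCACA

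CUST_1210 (EXORDIUM): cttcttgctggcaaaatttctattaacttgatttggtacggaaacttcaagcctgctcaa

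A sequence was at hand for 8 members among 2901 probes. A search of these sequences, on both strands, for a run of at least 20 bases shared with a member found a single pair, CUST_10919 and CUST_11446, which are both members without a name. The end of CUST_11446 and the start of CUST_10919 are the same 29 bases, shown in capitals, so the pair counts as a repeat rather than as separate genes. This pair was singled out after its values were seen.

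CUST_11446: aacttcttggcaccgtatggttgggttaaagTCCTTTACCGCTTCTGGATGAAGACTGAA

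CUST_10919: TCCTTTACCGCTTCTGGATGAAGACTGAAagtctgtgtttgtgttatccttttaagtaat

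The levels below are log2 intensities minus the 75th percentile of the same array, computed from the scanner's processed intensities, so a level of 0 is the 75th percentile and a step of 1 is a 2-fold difference in intensity. The BRU1 probe CUST_12034 read -1.09, -1.94 and -1.98 at 0 h. At 3 h the values were -1.97, -2.34 and -1.96, at 12 h -1.58, -1.41 and -3.05, and at 24 h -1.37, -1.24 and -2.34. At 48 h it read -3.94, -3.72 and -3.71, below each of the other 12 arrays. Its mean fell from -1.67 ± 0.50 (SD, n = 3) to -3.79 ± 0.13, a change of -2.12 ± 0.40 (standard error of the fit) or 4.35-fold. The array nearest to the 48-h values was 12 h replicate 3, which stood apart from its 2 companions.

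The XTH22 probe CUST_14531 read 3.99, 3.33 and 3.23 at 0 h. The 3-h arrays read 3.72, 3.03 and 3.47, and the 24-h arrays 3.64, 3.88 and 2.88. Its 12-h arrays were spread most widely, at 2.94, 4.11 and 1.99. At 48 h it read 1.86, 1.78 and 1.81, so that the 3 arrays lay within an SD of 0.04 of each other and below all 12 others, with the third 12-h array only just above. The change from 0 h was -1.70 ± 0.43, or 3.25-fold.

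The EXORDIUM probe CUST_1210 stood higher at 3 h than at 0 h, with -1.59, -2.05 and -1.79 against -1.87, -2.54 and -2.34, a difference of 0.44 that stayed inside the limit of the selection. The 12-h arrays gave -2.11, -1.52 and -2.89, and the 24-h arrays -2.28, -2.03 and -2.84. At 48 h it read -3.30, -3.72 and -3.97, again below the other 12 arrays, and the change from 0 h was -1.41 ± 0.32, or 2.66-fold. In all 3 named probes the third arrays of 12 h and 24 h were the lowest of their time points.

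**Figure D1:**
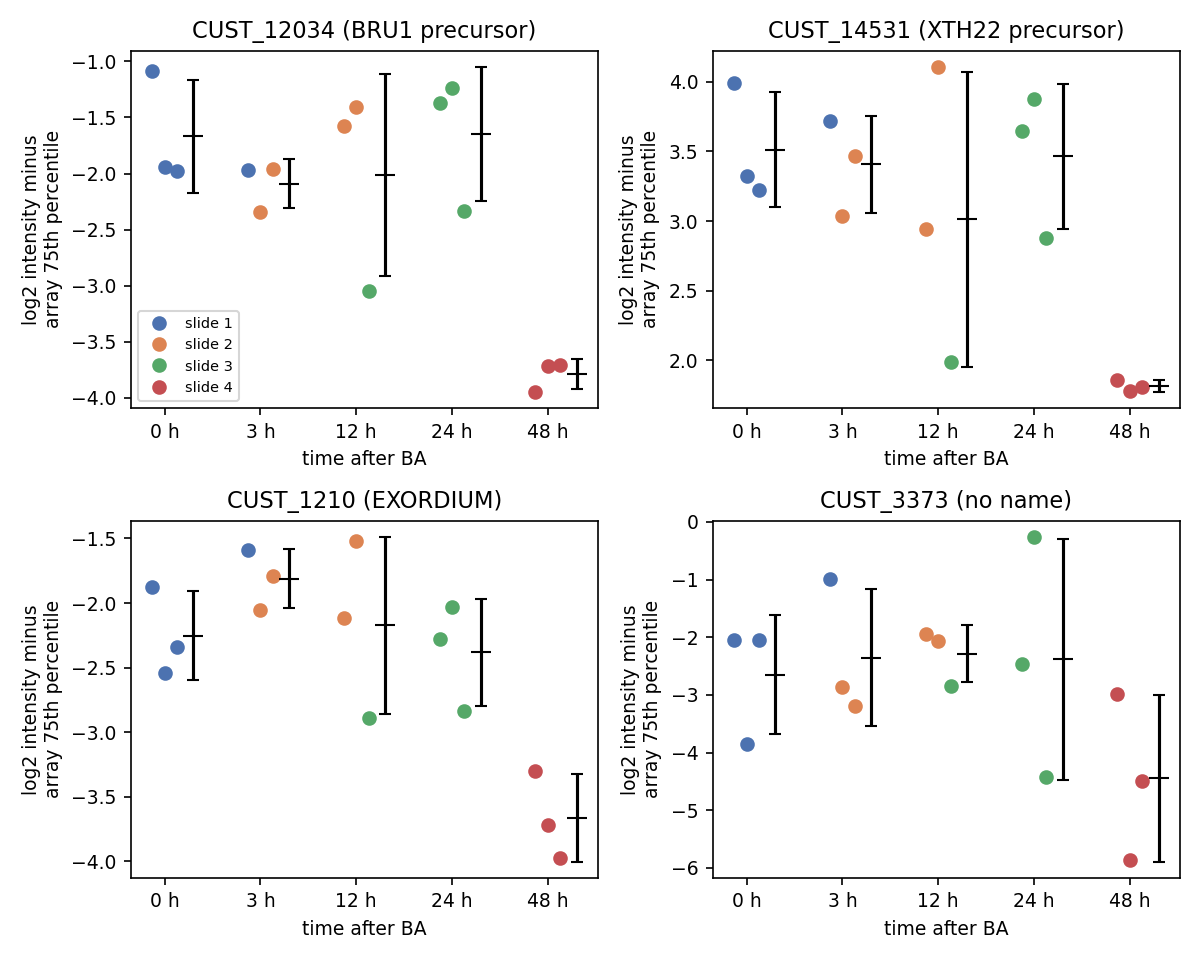
Level of 4 probes on each of the 15 arrays (y axis, log2 intensity minus the 75th percentile of the array; x axis, time after BA); points are arrays coloured by slide, and the bar beside them is the mean with its SD (n = 3). The 48-h points of BRU1, XTH22 and EXORDIUM lie below all other points, while those of CUST_3373 run from -2.98 to -5.87 and overlap the other time points.

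Over the 84 probes the change from 0 h to 48 h had a median of -0.97 and ran from -2.30 (CUST_5743) to -0.66, while the median over all 34469 tested probes was 0.02. A fall of at least 1 on the log2 scale was seen in 39 members, of at least 1.5 in 17 and of at least 2 in 2, namely CUST_5743 and the BRU1 probe. The standard error of the change was larger for the members than for probes in general, with a median of 0.27 against 0.13. At the threshold of the study's methods (2-fold and an adjusted p of 0.05 by limma), 32 of the 84 probes were called lower at 48 h, beside 0.818% of all tested probes, and by the adjusted p alone 60 were, beside 6.34%. The selection used this contrast, so nothing is read from these counts. They also hung on single arrays: without 48 h replicate 3, 7 of the 32 calls were kept, without 48 h replicate 2, 18, and without 0 h replicate 1, 15.

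Every 48-h array lay below every 0-h array for 75 members, beside 17.2% of all tested probes, and below all 12 other arrays for 45, beside 1.78%. For the other 39 members at least 1 array of an earlier time point reached down to the 48-h values. The selection used the means of these arrays, so nothing is read from these counts. From 24 h to 48 h the median change was -0.97, with a range from -2.14 to -0.35, and 28 members were called lower over this step, beside 1.39% of all tested probes. The selection used both means, so nothing is read from this count either. That count was 13 without 24 h replicate 2, 14 without 48 h replicate 3 and 18 without 48 h replicate 2. The limits of the selection left no room for a 2-fold change at 3, 12 or 24 h, and accordingly no member was called there, where 0.896%, 5.54% and 0.998% of all tested probes were called lower and 1.69%, 3.50% and 2.18% higher. By the adjusted p alone 2 members were lower at 12 h, CUST_37499 at -0.40 and CUST_41453 at -0.51, beside 16.0% of all tested probes, and nothing is read from this count.

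**Figure D2:**
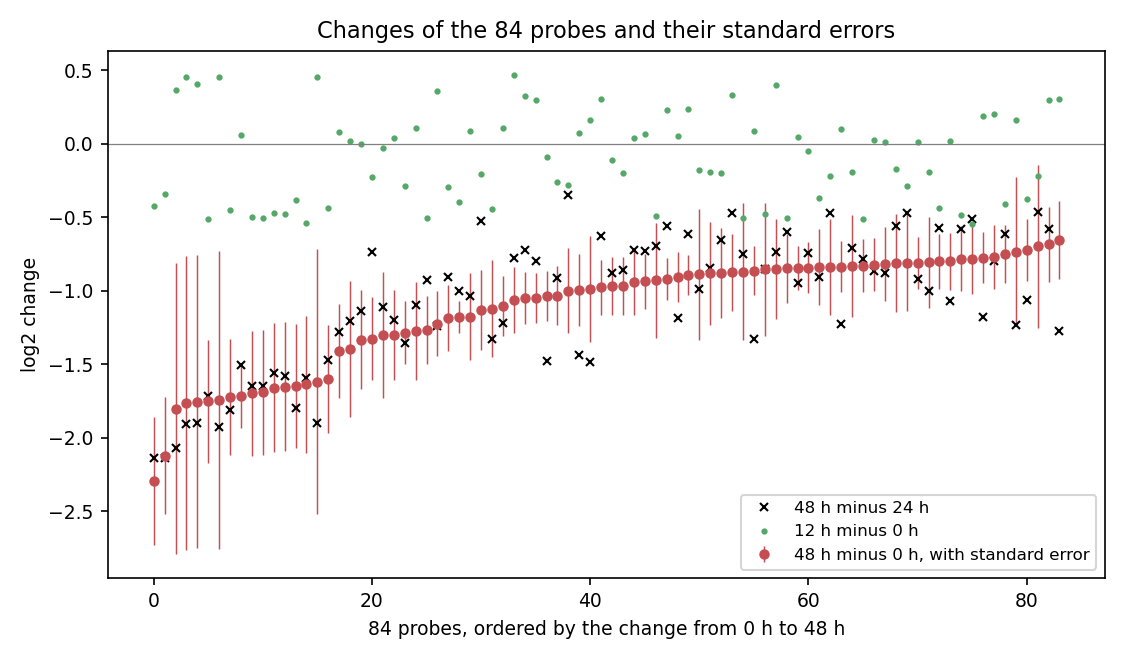
Log2 change of each of the 84 probes (y axis), ordered along the x axis by the change from 0 h to 48 h (red, with its standard error), with the change from 24 h to 48 h (crosses) and from 0 h to 12 h (green). The red points run from -2.30 to -0.66, the crosses from -2.14 to -0.35, and the widest error bars belong to CUST_3373 and the probes like it.

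The members did not follow a single course within the limits. They were sorted by the correlation of their levels over the 15 arrays (average linkage, joined up to a distance of 0.2 on the scale of 1 minus Pearson's r). This gave 23 groups, 10 of which held at least 3 probes and 66 members together, and 8 of which held 1. The arrays share slides and replicates, and the 48-h fall that chose the members enters every r, so these correlations are a description. The groups were made from the values and were not tested. The paper states that its probes represent a smaller number of transcripts, so probes of a group may read the same transcript. Counts of probes are therefore not counts of genes.

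The largest group held 25 probes, among them all 3 named ones. Taking the median of its probes on each array as a difference from the 0-h mean, the 0-h arrays gave 0.45, -0.24 and -0.25 and the 3-h arrays 0.33, -0.31 and 0.09. The 12-h arrays gave -0.28, 0.56 and -1.0, and those of 24 h gave 0.10, 0.31 and -0.56. The 48-h arrays gave -1.14, -1.42 and -1.55. The group thus had its lowest arrays at 48 h, and the next lowest at the third replicate of 12 h. For 18 of its 25 probes the 48-h arrays lay below all 12 others.

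Within this group the named probes had close companions. Over the 15 arrays 2 other members reached an r of at least 0.95 with the BRU1 probe, 9 with the XTH22 probe and 5 with the EXORDIUM probe. Of 32301 probes compared, 3 reached it with the BRU1 probe, and the non-member among them was CUST_30532 (r = 0.966). CUST_5743, the member with the deepest fall, followed the BRU1 probe at r = 0.997. Its 0-h arrays read -0.95, -1.82 and -1.96 and its 48-h arrays -4.06, -3.71 and -3.84, a change of -2.30 ± 0.43. Its target is not named in the lists used here, so whether both probes read the same transcript was not tested. The same holds for the unnamed companions of the XTH22 and EXORDIUM probes.

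The companions of the XTH22 probe included CUST_14877 (r = 0.998), CUST_8766 (r = 0.997) and CUST_12157 (r = 0.993), 3 of the 10 members with the deepest fall in the authors' table. CUST_14877 went from 3.50, 2.73 and 2.70 on the 0-h arrays to 1.24, 1.16 and 1.27 on the 48-h arrays. CUST_12157 went from 2.67, 1.99 and 1.83 to 0.57, 0.27 and 0.48. In both, as in the XTH22 probe, the first 0-h array stood above the other 2, and the 48-h arrays lay within an SD of 0.06 for CUST_14877 and of 0.15 for CUST_12157. The changes of CUST_14877, CUST_12157 and CUST_8766 from 0 h to 48 h were -1.75 ± 0.42, -1.72 ± 0.39 and -1.69 ± 0.42. Of all 32301 probes compared, 16 reached an r of 0.95 with the XTH22 probe, and the 7 that were not members included CUST_7540 and CUST_14281, which missed the limit at 12 h alone by about 0.01 in the authors' table.

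The EXORDIUM probe was followed most closely by CUST_410 (r = 0.997), CUST_17529 (r = 0.995) and CUST_6544 (r = 0.995). These probes changed by -1.30, -1.27 and -1.33 from 0 h to 48 h. All 5 probes that reached an r of 0.95 with the EXORDIUM probe, of 32301 compared, were members. The 48-h fall that chose the members enters this r, so nothing is read from their number.

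A second group of 7 probes had low means at 48 h and a wide spread within time points. It held CUST_3373, CUST_18102, CUST_13137 and CUST_2169, 4 of the 10 members with the deepest fall. CUST_3373 read -2.05, -3.85 and -2.04 at 0 h. Its 3-h arrays read -1.0, -2.87 and -3.19, and its 12-h arrays -1.95, -2.06 and -2.85. The 24-h arrays read -2.46, -0.26 and -4.43, and the 48-h arrays -2.98, -5.87 and -4.50, so its 24-h arrays alone spanned most of the range of the time course. Its change from 0 h to 48 h was -1.80 ± 0.99, and the other 3 changed by -1.76 ± 1.00, -1.75 ± 1.00 and -1.74 ± 1.01. None of the 7 probes passed the adjusted p, and for none did the 48-h arrays lie below all others. CUST_3373 correlated with CUST_13137, CUST_4776, CUST_18102 and CUST_2169 at r = 0.998 each, so these 5 probes moved as a block from array to array. Whether they read the same transcript was not tested.

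Another group of 7 probes, led by CUST_2061, had a median change of -0.84. CUST_2061 itself read -3.64, -3.93 and -3.99 at 0 h, between -3.48 and -4.46 at the 3 time points between, and -5.49, -5.50 and -5.72 at 48 h. The gap of about 1 between its 48-h arrays and the lowest other array exceeded the spread within any time point, and its change was -1.72 ± 0.22. For 6 of these 7 probes the 48-h arrays lay below all others.

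A group of 6 probes led by CUST_5203 stood lower at 3 h and higher at 12 h, with median changes of -0.35 and 0.30, before a median change of -1.01 at 48 h. A group of 5 led by CUST_27673 stood highest at 24 h, with a median change of 0.40, and at -0.91 at 48 h. In all 5 of these the 48-h arrays lay below the other 12. CUST_27673 read 4.75, 4.64 and 4.69 on the 0-h arrays, 4.91, 4.82 and 4.69 on those of 24 h, and 3.72, 4.03 and 3.02 on those of 48 h.

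The overlapping pair belonged to a group of 4 with a median change of -0.60 at 24 h and of -1.16 at 48 h on the shifted intensities. CUST_10919 read 5.15, 5.01 and 5.52 on the 0-h arrays, 4.73, 4.63 and 4.53 on those of 24 h, and 4.05, 4.29 and 3.35 on those of 48 h. CUST_11446 read 5.32, 5.18 and 5.65, then 4.89, 4.82 and 4.62, and then 4.35, 4.65 and 3.75. At 24 h both already lay below every 0-h array, and at 48 h their means were lower still. Their changes at 48 h were -1.33 ± 0.28 and -1.13 ± 0.27, and their levels correlated at r = 0.993. Of 32301 probes compared, 24 reached an r of 0.95 with CUST_10919, and 2 of these were members. The closest to it was a non-member, CUST_37169 (r = 0.998).

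A group of 3 (CUST_18006, CUST_19210 and CUST_12115) had a median change of -1.30 at 48 h. Its median on each array was 0.56, -0.43 and -0.13 at the start, 0.75, 0.01 and -0.85 on the 12-h arrays, and -1.09, -1.13 and -1.68 on the 48-h arrays. None of these 3 passed the adjusted p, and for 2 of them the 48-h arrays lay below the other 12.

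**Figure D3:**
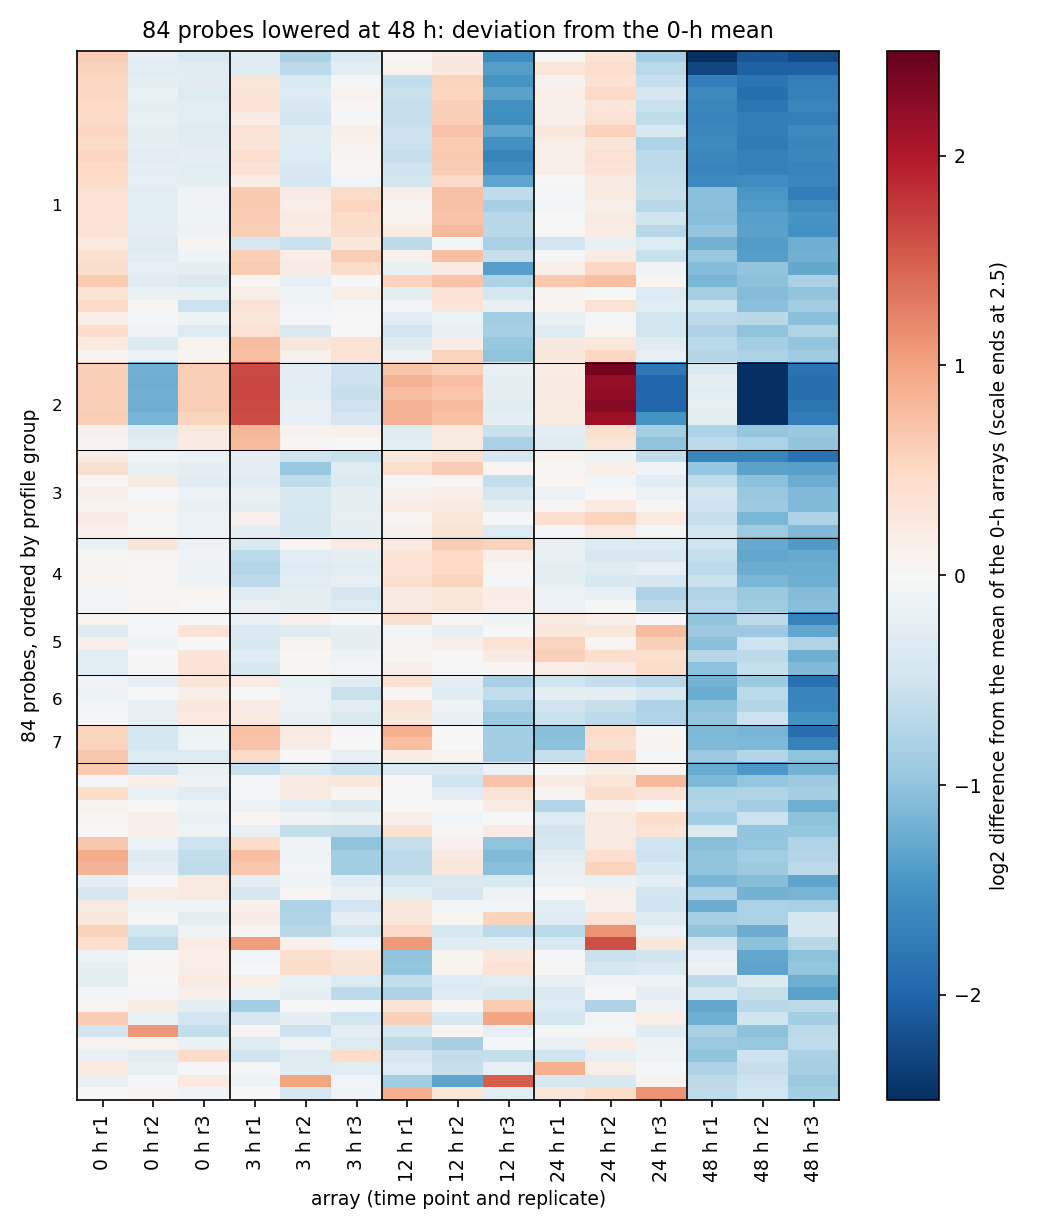
Difference of each of the 84 probes (rows) on each of the 15 arrays (columns) from the mean of its 0-h arrays. The scale is log2, with blue for lower. Numbers 1 to 7 mark profile groups in order of size, and the remaining groups, of 3 probes or fewer, follow unnumbered. The 48-h columns are blue in nearly all rows, the third 12-h array is blue in most of group 1, and group 2 alternates between red and blue within time points.

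The arrays themselves differed in how low the members stood. The median of the 84 probes, as a difference from their 0-h means, was 0.24, -0.16 and -0.12 on the 0-h arrays and 0.09, -0.20 and -0.19 on the 3-h arrays. On the 12-h arrays it was 0.06, 0.19 and -0.39, on the 24-h arrays -0.03, 0.21 and -0.35, and on the 48-h arrays -0.91, -1.02 and -1.21. The 48-h medians lay below all others, and the lowest of the others were the third replicates of 12 h and 24 h. On those 2 arrays 38 and 31 of the 84 members were at least 0.5 below their 0-h mean, against 0 to 18 on the other 10 arrays before 48 h and 72 to 82 on the 48-h arrays. The median of all tested probes stayed between -0.06 and 0.05 on every array.

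**Figure D4:**
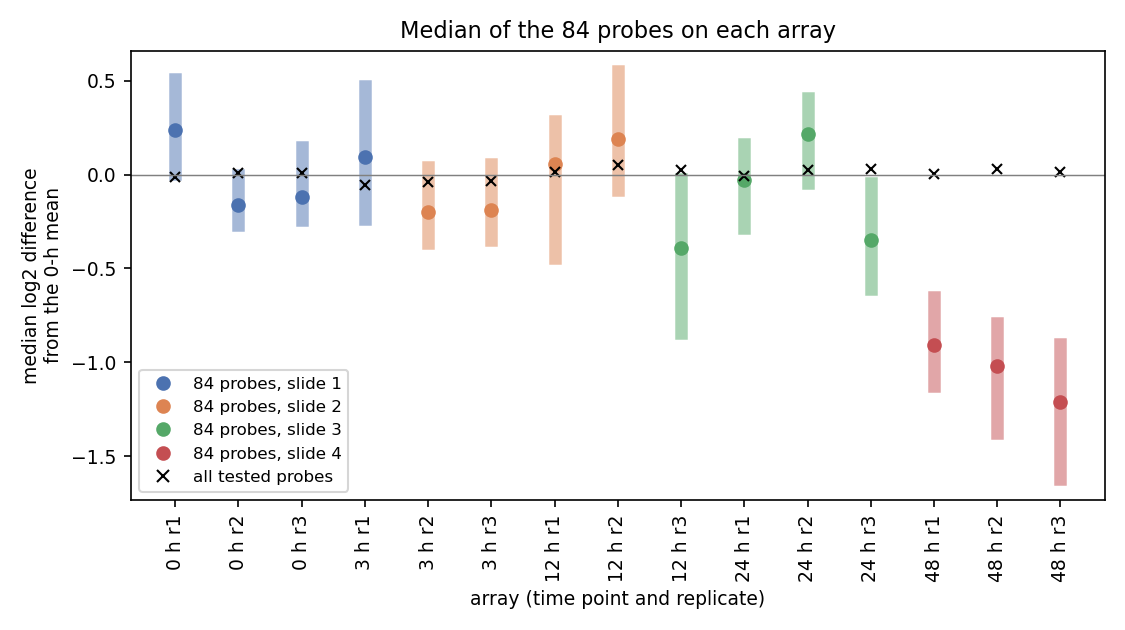
Median difference of the 84 probes from their 0-h means on each array (points, coloured by slide; thick bars span the middle 50% of the probes; y axis, log2) with the median of all tested probes (crosses). The 48-h arrays, alone on slide 4, have medians from -0.91 to -1.21, and the third arrays of 12 h and 24 h have the next lowest.

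The arrays lay on 4 slides scanned on 2 days. Of the 4, slide 1 was scanned on a different day from the rest and carried the 0-h replicates together with replicate 1 of 3 h. Replicates 2 and 3 of 3 h shared slide 2 with replicates 1 and 2 of 12 h. Replicate 3 of 12 h shared slide 3 with the 24-h replicates, and the 48-h replicates had slide 4 to themselves. Slide and the 48-h time point therefore cannot be told apart. The time points split between slides were 3 h and 12 h. At 12 h their median difference of replicate 3 (slide 3) from replicates 1 and 2 (slide 2) was -0.56, and at 3 h that of replicate 1 (slide 1) from the other 2 was 0.31, against medians of 0.00 and -0.03 over all tested probes. Regardless of sign, the median differences were 0.72 and 0.42 for the members and 0.18 and 0.15 for all tested probes. Replicates on the same slide differed as well. The members' medians on the 24-h arrays, all on slide 3, ran from -0.35 to 0.21, and those on the 0-h arrays, all on slide 1, from -0.16 to 0.24. The part of the slide in the members' values was not tested.

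The arrays of slides 2, 3 and 4 shared a scan day. Among them the members were lower at 48 h by a median of 0.97 against 24 h. Against the 12-h and the 3-h arrays of slide 2 they were lower by medians of 1.04 and 0.89. Against 12 h replicate 3 the median difference was smaller, at -0.60, and 75 of 84 were lower. The selection used the means of all these time points, so nothing is read from these differences. With scan day as a block, the 0-h arrays are set against the rest through 3 h replicate 1 alone. The median change from 0 h to 48 h was then -0.84, and 74 members kept their direction. Of the members 3 were called lower, beside 52 of all 34469 tested probes. With slide as a random block 28 members were called lower, beside 234 of all tested probes.

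The members just inside the limit at 48 h were CUST_27551 at -0.801, CUST_28267 at -0.81 and CUST_25874 at -0.81 in the authors' table, and just outside it were CUST_22661 at -0.798, CUST_1836 at -0.79 and CUST_37888 at -0.79. At 12 h CUST_28267 at -0.4993, CUST_13971 and CUST_41453 at -0.49 were just inside, and CUST_29942 at -0.5015, CUST_14281 and CUST_7540 at -0.51 just outside. At 24 h the nearest inside were CUST_12903 at 0.49, CUST_14237 at -0.48 and CUST_32391 at 0.47, and outside CUST_2289, CUST_5605 and CUST_9133 at -0.52. At 3 h they were CUST_22321 at -0.49, CUST_38414 and CUST_24479 at -0.47 and 0.47 inside, and CUST_12788 at 0.51, CUST_7359 and CUST_38675 at -0.53 outside. Probes that missed the 3-h, 12-h or 24-h limit alone numbered 30, 42 and 67, and 27, 39 and 61 of these were already lower at that time point. How many probes count as lower at 48 h alone thus depended on where the limits were drawn. With the limits 0.1 stricter 20 of the 84 remained, and with the limits 0.1 looser 202 probes qualified.

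Besides the 3 members, 6 probes were described as xyloglucan enzymes, expansins or polygalacturonases. This list was drawn up after the values were seen, and since the members were chosen for their fall, no comparison with them is drawn. CUST_7365, described as an XTH protein A precursor, changed by -0.60 ± 0.19 (limma, adjusted p = 0.0553). The 3 expansin probes, whose proteins loosen the wall, changed by between -0.23 and -0.08, and none passed the adjusted p. Of 2 polygalacturonase probes, which stand for enzymes that cut pectin, CUST_32052 rose by 0.98 ± 0.26 (limma, adjusted p = 0.0304), and CUST_17868 differed by 0.50 ± 0.30 (adjusted p = 0.277).

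The named members carry the names of genes known as brassinosteroid-responsive in other plants. The brassinosteroid probes of the study's hormone list were therefore set beside them. Of 12 probes tested, none was called at 48 h, where 0.818% of all tested probes were called lower and 1.88% higher. By the adjusted p alone 3 were lower and 1 was higher, beside 6.34% and 7.46%. BRI1 (CUST_15214), the brassinosteroid receptor, fell by 0.35 (standard error 0.11; limma, adjusted p = 0.0488), SERK1 (CUST_30744), a co-receptor, by 0.26 (standard error 0.06; adjusted p = 0.0166), and DWF1 (CUST_30952), a biosynthetic enzyme, by 0.40 (standard error 0.07; adjusted p = 0.0055). DWF4 (CUST_36720), which carries out an early hydroxylation of the pathway, rose by 0.64 ± 0.13 (adjusted p = 0.0106). CPD (CUST_36558), another enzyme of the pathway, differed by 0.52 ± 0.27 (adjusted p = 0.215).

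Over the whole hormone list 113 of 115 probes were tested, and 2 were called lower and 4 higher at 48 h. These counts, and those of the lists below, stand beside 0.818% of all tested probes called lower and 1.88% called higher. The ethylene probes, 10 in all, held 1 called higher, MBF1C (CUST_1121), a transcriptional coactivator, which rose by 2.28 ± 0.54 (limma, adjusted p = 0.0199). The cytokinin probes, 27 in all, held 1 called lower, ATHB2 (CUST_36748), which changed by -1.14 ± 0.19 and is the probe that the selection left out by name. Gibberellin probes held 3 called higher of 8 tested, namely GID1B, GID1C and GA20OX1, and jasmonate probes 1 called lower of 12, JMT. Of 29 tested probes of the study's flowering list 1 was called in each direction. None of these probes was a member, and nothing is read from this.

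Markers of the tissue were checked on the same arrays. Of 8 floral organ identity probes 7 stood well above background on every array, as did both meristem probes and all 13 photosynthetic ones, and none of these was called in either direction at 48 h. The median change at 48 h was 0.19 for the 7 floral organ identity probes tested, 0.22 for the 2 meristem probes and -0.37 for the 13 photosynthetic ones. None was lower by the adjusted p alone. By that measure, AGAMOUS (CUST_14761), which specifies stamens and carpels, rose by 0.65 ± 0.19 (limma, adjusted p = 0.0383) and CUC3 (CUST_7808), a boundary gene, by 0.79 ± 0.16 (adjusted p = 0.0094). Of 11 oleosin probes, which mark seed oil bodies, 10 were well above background on no 0-h array and on all 3 arrays of 48 h. These 10 were called higher at 48 h, beside 1.88% of all tested probes. At 3 h none of the 10 rose above background in this sense, and at 12 h 8 of them did so in all 3 replicates. The summed level of the list, on the log2 scale, lay between -4.13 and -4.00 at 0 h and between -2.34 and -1.81 at 48 h. The remaining probe, CUST_20598 (Oleosin1), fell by 0.60 (standard error 0.16; limma, adjusted p = 0.0326). The single probe described as a pollen protein, CUST_37684, was called higher too, with levels from -8.94 to -6.65 on the 0-h arrays, 2 of which read it well above background, and from -3.44 to -2.65 on the 48-h arrays. Of the 11 oleosin probes 9 were well above background on all 3 arrays at 12 h and 11 at 24 h, when the members' median change was -0.10 at either time. The selection held the members near their 0-h level at both times, so nothing is read from this difference in timing. The part of these markers in the members' values was not tested.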

How the data were processed

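The authors hybridised Cy3-labelled cRNA to 1-colour Agilent arrays and deposited, for each array, spot intensities that Feature Extraction 10.7.3.1 had background-subtracted, with flags for outlier and dim spots. They also deposited a log2 table, of which 99.99% of values lay within 0.1 of quantile-normalized log2 intensities. The log2 table chose the members, and all levels and changes otherwise come from log2 processed intensities minus the 75th percentile of each array (12.31 to 12.85). Spots marked as outliers (39 to 162 per array) were left out, no spot was saturated, and the share of probes well above background ran from 79.0% to 84.0%. The number of arrays sets the precision.

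A linear model over the 15 arrays (limma 3.58.1, R 4.3.3, Benjamini-Hochberg adjustment) was run on 34469 probes, each with all 3 replicates of some time point well above background, after the fit had been tested on simulated data. Calls needed a change of 2-fold or more and an adjusted p no higher than 0.05. Profile groups were made with scipy 1.17.1. Names and sequences come from the paper's supplementary lists, of which part was used here. The rule for named probes took every annotated member and the 10 members with the deepest fall in the authors' table. It also took the 3 probes nearest each limit on either side, and other probes of the same transcripts. For these, sequence overlap found only the pair described, among the 8 members and 2901 probes with a sequence. Probes of the same transcript need not overlap, so this search could miss others. The members, lists and rules were chosen with earlier results of these data known. Alternatives were other scalings, the authors' table, normexp background correction, other filters on dim probes, outlier spots kept, slide, scan day or replicate number as a block, fewer arrays and other limits of the selection. The limits recomputed on the shifted intensities were added after seeing the data.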

Additional observations from a re-analysis of the deposited data

How the results depend on the processing

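The median change of the members at 48 h kept its direction under every alternative, between -1.33 and -0.67, and leaving out single arrays gave -1.08 to -0.94. The members were chosen for a fall at 48 h on these same arrays, so nothing is read from the kept direction. Without scaling between arrays the median change of all probes was 0.32, against 0.02 in the text, the members' median was -0.67, 16 members were called, and 127 probes were called lower and 1369 higher, against 282 and 649 in the text. With normexp it was -0.22, the members' median was -1.33, 17 members were called at 48 h and 1 from 24 h to 48 h, and 115 probes were called lower and 68 higher. Restricted to probes well above background on all 15 arrays, 363 were called higher. With scan day as a fixed block 52 probes were called lower and 173 higher, 3 members were called, and CUST_3373, CUST_18102, CUST_13137 and CUST_2169 turned to 0.23, 0.30, 0.34 and 0.27. The cause of these shifts was not tested. Slide as a fixed block gives no value at 48 h, since slide 4 held no other time point.

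Leaving out single arrays, members called at 48 h ranged from 7 to 33, those called from 24 h to 48 h from 13 to 33, probes called lower from 86 to 306 and higher from 346 to 644. The lowest probe counts came without 48 h replicate 3, and without 0 h replicate 2 they were 160 and 422. Of 13 named members with an adjusted p of at most 0.05, counted as a description, 13 lost it with scan day as a block, 10 with normexp, 10 without 48 h replicate 3 and 8 without 0 h replicate 1, and 4 or fewer under each other alternative.

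Of the 84 members, 63 met the limits on the shifted intensities (an alternative chosen after seeing the data), 40 with normexp, 21 without scaling and 20 with limits 0.1 stricter, and 39 to 78 with single arrays left out, the lowest without 0 h replicate 3 (39) and 0 h replicate 1 (47). Same-numbered arrays of 0 h and 48 h deviated with correlations of -0.09, 0.21 and 0.16, and arrays with unlike numbers with -0.24 to 0.12. These values do not settle whether the numbers mark pairs. The replicate numbers were not taken as pairs in the text. With the replicate block 32 members were called lower, and 285 probes lower and 651 higher.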
